A study of Mus musculus with 10 samples.

Results

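Interferons switch on a shared set of genes that restrict intracellular microbes and display peptides to T cells. Here 47 such genes were followed in mouse liver, and 45 of them have a row of their own among the 41388 genes of the count files. The set was put together after a strong rise had been seen in 1 liver, WT Fasting mouse 3. The genes were thus chosen by their counts and CPM in that liver, and those values are given as a description, without a test.

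RNA-seq was performed on liver of 12-week-old littermates of strain C57B/6J, with 1 library per mouse. WT Fed mice (n = 2) had 22 h of fasting and 2 h of refeeding by the sample labels, whereas a legend of the paper describes the fed controls as random-fed. WT Fasting mice (n = 3) and NAMPT LKO Fasting mice (n = 5) were fasted for 24 h by the labels, whereas the same legend gives a shorter fast. All mice carried NAMPT fl/fl alleles, and NAMPT LKO mice lost Nampt, which makes the NAD precursor nicotinamide mononucleotide, in hepatocytes through Albumin-cre. The WT controls carried no Cre, and Nampt in the other liver cells is not a target of this promoter.

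Total counts ranged from 30603080 to 43434139 per library. Unless marked otherwise, CPM of single genes below are TMM-normalized, that is, counts scaled to a fixed library size and corrected for composition. Sums over markers or lists of genes are CPM of the library total, without that correction. The TMM factor was 0.851 in NAMPT LKO Fasting mouse 5 and between 0.964 and 1.047 in the other livers. Nampt itself was between 11.6 and 15.1 CPM in the 5 NAMPT LKO Fasting livers and between 62.1 and 139 CPM in the 5 WT livers, and the highest value was that of WT Fasting mouse 3. Hepatocyte markers summed to between 79800 and 114000 CPM in the 10 livers, and were abundant in every library. Mitochondrially encoded transcripts made up 21.1% of counts in NAMPT LKO Fasting mouse 5, 7.42% in WT Fasting mouse 3 and between 10.4% and 12.9% in all other livers. In bulk tissue, fewer cells of a type and less RNA per cell cannot be told apart.

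Type I interferons signal through a complex that holds STAT2 and IRF9 and binds interferon-stimulated response elements (ISRE) in the promoters of antiviral genes. Interferon gamma, made mainly by T cells and NK cells, acts on promoters through gamma-activated sites (GAS), and it raises IRF1, a factor that also binds ISRE-type sequence. In liver, hepatocytes, Kupffer cells and endothelium all carry both receptors. The 47 genes were divided by their better-known inducer into 32 gamma-type targets, 11 type I targets and 4 shared targets. Nearly all of them can respond to either interferon, so the classes are a guide and not a measurement.

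The gamma-type targets hold the immunity-related GTPases (IRGs) and the guanylate-binding proteins (GBPs), both of which attack the vacuoles of intracellular parasites and bacteria. They also hold the immunoproteasome, which cuts antigens, the loading machinery of MHC class I and the genes of MHC class II. The type I targets hold antiviral effectors such as Isg15 and the Ifit genes. In GRCm38, many members lie side by side. Irgm1, Tgtp1, Tgtp2 and Ifi47 lie within 11:48861968-49096974, and Gm12250, Igtp and Irgm2 within 11:58187739-58222779. Gbp2, Gbp3 and Gbp7 lie within 3:142530338-142638008, Ifit1, Ifit2 and Ifit3 within 19:34550694-34650009, and 7 antigen-processing and MHC class II genes within 17:33915899-34287827.

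Promoter sequence was read from RefSeq windows of 300 bases (GRCm38.p6), from 250 bases before to 50 bases after a transcription start, and 35 of the 47 genes had at least 1 window. The ISRE core was searched as GAAANNGAAA on both strands and the GAS core as TTCNNNGAA, which reads the same on both strands. An ISRE core was found in 18 of 41 member windows (43.9%) and in 3.44% of all 32851 windows. A GAS core was found in 11 member windows (26.8%) and in 8.3% of all windows. Of the gamma-type windows, 12 of 27 held the ISRE core and 10 the GAS core. Among the IRG windows in that class, 6 of 7 held the ISRE core and 5 of 7 the GAS core. Of the type I windows, 5 of 12 held the ISRE core and 1 the GAS core.

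Of the 7 IRG windows, 4 held the motifs in one arrangement. In Igtp, Irgm2, Tgtp1 and Tgtp2 a GAS core stood immediately upstream of an ISRE core, with 2 bases between them. These 4 promoters are shown with those of Irf1, which held a GAS core only, and of Isg15, which held overlapping ISRE cores only. Each stretch is written 5′ to 3′ on the strand of the gene, from 120 bases before the start to 10 bases from it, and capitals mark ISRE and GAS cores. The stretches are chr11:58199436-58199565 (plus strand) for Igtp, chr11:58214857-58214986 (plus) for Irgm2, chr11:48992237-48992366 (minus) for Tgtp1, chr11:49064203-49064332 (minus) for Tgtp2, chr11:53769894-53770023 (plus) for Irf1 and chr4:156200809-156200938 (minus) for Isg15.
Igtp: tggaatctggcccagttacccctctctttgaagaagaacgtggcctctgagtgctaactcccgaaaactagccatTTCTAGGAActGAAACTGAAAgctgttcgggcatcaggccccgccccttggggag
Irgm2: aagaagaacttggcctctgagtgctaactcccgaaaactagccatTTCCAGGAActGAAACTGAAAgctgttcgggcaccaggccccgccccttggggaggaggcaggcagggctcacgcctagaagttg
Tgtp1: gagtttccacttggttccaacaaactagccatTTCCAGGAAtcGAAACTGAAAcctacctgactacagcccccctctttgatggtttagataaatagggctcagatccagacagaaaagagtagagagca
Tgtp2: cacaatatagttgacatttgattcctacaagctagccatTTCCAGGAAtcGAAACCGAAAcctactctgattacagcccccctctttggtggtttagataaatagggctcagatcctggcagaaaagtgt
Irf1: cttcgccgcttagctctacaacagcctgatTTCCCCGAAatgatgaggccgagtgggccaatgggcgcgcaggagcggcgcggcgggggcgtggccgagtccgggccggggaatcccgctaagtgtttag
Isg15: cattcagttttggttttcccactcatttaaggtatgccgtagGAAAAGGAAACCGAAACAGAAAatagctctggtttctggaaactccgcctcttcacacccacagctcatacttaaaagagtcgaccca
The Tgtp1 and Tgtp2 windows matched at 219 of 272 aligned bases (80.5%). The Igtp and Irgm2 stretches also have nearly the same letters around the cores. The shared arrangement thus stood in pairs of similar sequence, and its count is not one of unrelated promoters. Gbp7 held 2 GAS cores and 1 ISRE core further apart, and Ifit1 and Ifit3 held 2 ISRE cores each. Tap1 and Psmb9 are transcribed in opposite directions from windows that share 275 bases, and neither core was present there. A match is a stretch of letters and not evidence that a factor bound in these livers.

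All 45 measured genes were highest in WT Fasting mouse 3, as were 1787 of all 13444 tested genes (13.3%). In 39 of 45 genes (86.7%) the level in that liver was at least 2-fold above the highest of the other 9 livers, against 203 of all 13444 tested genes (1.51%). Because that liver was highest for all 45 genes, no other liver could be 2-fold above all others for any of them. The same liver had a median log2 difference from the median of the other 9 livers of 2.79 for the 45 genes and of -0.01 for all tested genes. By class, the median log2 difference was 3.45 for gamma-type targets (n = 30), 2.35 for type I targets (n = 11) and 1.74 for shared targets (n = 4). The ranges overlapped: type I targets went from 1.01 to 2.77, and 23 of 30 gamma-type targets lay above that range, 6 within it and 1, B2m, below it. These counts describe the liver that chose the genes.

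**Figure D1:**
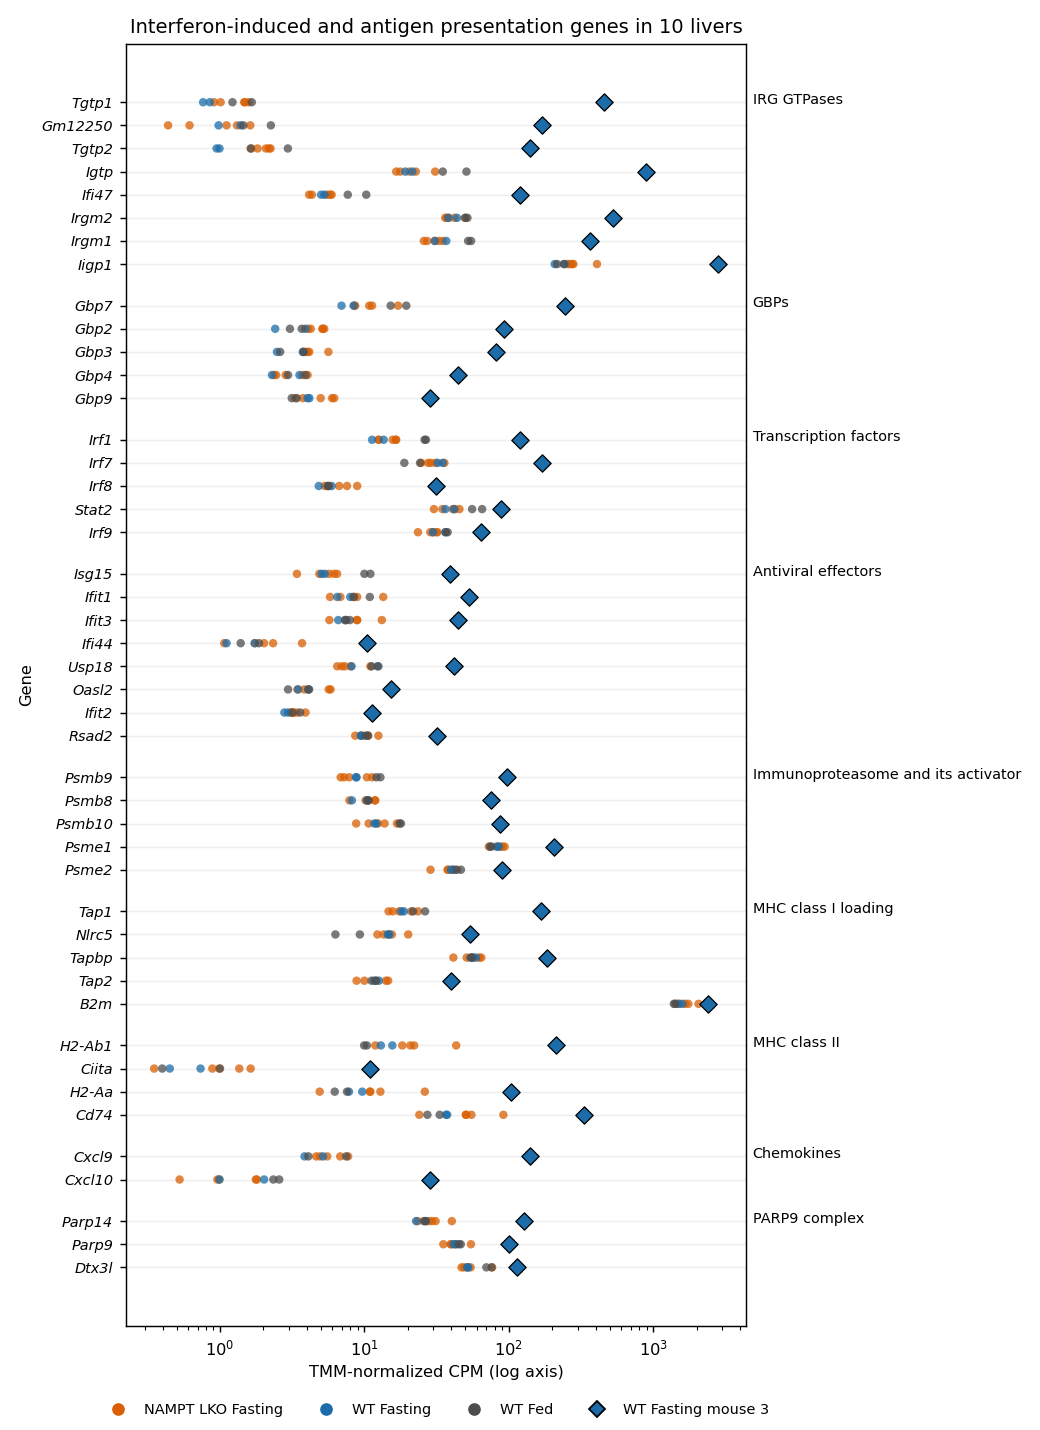
TMM-normalized CPM (log axis) of the 45 measured genes, ordered by role. Each point is 1 liver, coloured by group, and diamonds mark WT Fasting mouse 3, which was the highest of the 10 livers for every gene shown. The other 9 livers span at most 5.35-fold for any gene.

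**Figure D2:**
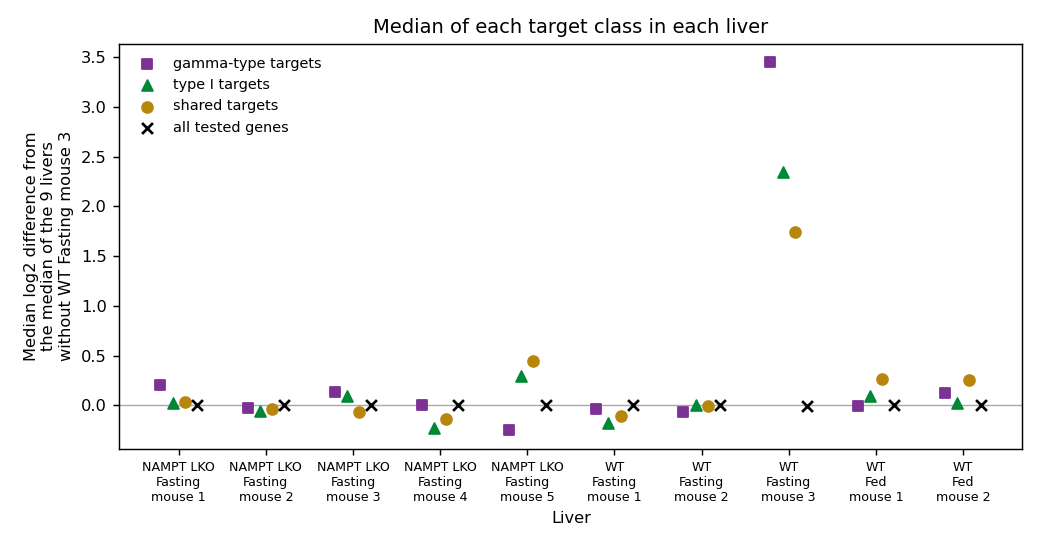
Median log2 difference, for each liver, from the median of the 9 livers without WT Fasting mouse 3, for gamma-type, type I and shared targets and for all tested genes. In WT Fasting mouse 3 the medians were 3.45, 2.35 and 1.74 for the 3 classes and -0.01 for all genes, and in the other livers the class medians lay between -0.25 and 0.45.

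The IRGs showed the widest separation of that liver, with a median log2 difference of 4.89 over 8 genes. Tgtp1, an IRG effector, was at 1.47, 1.01, 1.58, 0.91 and 1.49 CPM in NAMPT LKO Fasting mice 1 to 5, at 0.85, 0.764 and 457 CPM in WT Fasting mice 1 to 3, and at 1.22 and 1.66 CPM in WT Fed mice 1 and 2. The nearest liver to WT Fasting mouse 3 was thus a WT Fed liver, and the separation was 276-fold. Gm12250, annotated on the same chromosome and also known as Irgb10, was at 1.31, 1.11, 1.62, 0.615 and 0.437 CPM in NAMPT LKO Fasting livers, 1.39, 0.978 and 169 CPM in WT Fasting livers and 2.25 and 1.45 CPM in WT Fed livers. Outside WT Fasting mouse 3, the NAMPT LKO Fasting livers overlapped both other groups. Iigp1, the most abundant IRG per length, was at 275, 265, 280, 257 and 408 CPM in NAMPT LKO Fasting livers, 208, 244 and 2820 CPM in WT Fasting livers and 240 and 216 CPM in WT Fed livers. It had the smallest log2 difference of the IRGs (3.45), and NAMPT LKO Fasting mouse 5 stood above the rest of its own group.

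Igtp, known as Irgm3, was at 30.9, 17.7, 22.7, 16.6 and 20.5 CPM in NAMPT LKO Fasting livers, 21.5, 19.2 and 890 CPM in WT Fasting livers and 50.9 and 34.9 CPM in WT Fed livers. Irgm1, a regulatory IRG that protects the cell's own membranes, was at 34.9, 25.8, 30.8, 27.2 and 32.8 CPM in NAMPT LKO Fasting livers, 30.7, 36.9 and 367 CPM in WT Fasting livers and 52.3 and 54.8 CPM in WT Fed livers. Both WT Fed livers exceeded the other 7 livers that are not WT Fasting mouse 3 for both genes. Ifi47, known as Irgd, was at 5.79, 4.33, 5.93, 5.54 and 4.14 CPM in NAMPT LKO Fasting livers, 5.01, 5.29 and 120 CPM in WT Fasting livers and 7.67 and 10.3 CPM in WT Fed livers. It was ordered as Igtp and Irgm1 were. The log2 differences of Irgm2 and Tgtp2 in WT Fasting mouse 3 were 3.65 and 6.19. Tgtp1 and Tgtp2 have near-identical transcripts, and Igtp and Irgm2 overlap by 7974 bases on the same strand, so how reads were divided within each pair is uncertain.

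The GBPs, which coat parasite vacuoles and bacteria, had a median log2 difference of 4.38 over 5 measured genes. Gbp7 was at 10.8, 8.63, 11.3, 8.54 and 17.1 CPM in NAMPT LKO Fasting livers, 8.41, 6.94 and 246 CPM in WT Fasting livers and 15.2 and 19.5 CPM in WT Fed livers. Gbp2 was at 5.15, 5.12, 5.27, 4.07 and 4.25 CPM in NAMPT LKO Fasting livers, 3.9, 2.41 and 92.4 CPM in WT Fasting livers and 3.05 and 3.68 CPM in WT Fed livers. The order of the groups in the 9 other livers thus differed between these GBPs, with Gbp7 lowest in WT Fasting and Gbp2 highest in NAMPT LKO Fasting livers. Gbp9 had the smallest difference in the group (2.79), with 3.32, 3.76, 5.97, 4.98 and 6.18 CPM in NAMPT LKO Fasting livers, 4.04, 4.16 and 28.5 CPM in WT Fasting livers and 3.4 and 3.14 CPM in WT Fed livers. Gbp3 and Gbp4 had log2 differences of 4.38 and 3.86. Gbp4 and Gbp9 overlap by 23773 bases on the same strand, so their counts are uncertain.

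Gbp5 and Gbp6 had no row of their own. Of the exon parts that were counted under the identifier of Gbp2b, 11 of 22 lie in the span of Gbp5, and this feature was at 70.9 CPM of the library total in WT Fasting mouse 3 and from 1.7 to 5.84 elsewhere. Of the exon parts counted under the identifier of Gm43302, 10 of 22 lie in the span of Gbp6, and this feature was at 554.6 CPM of the library total in WT Fasting mouse 3 and from 6.25 to 14.2 elsewhere. Neither value can be given to a single GBP gene.

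The transcription factors had a median log2 difference of 2.45 over 5 genes. Irf1, the factor raised early by interferon gamma, was at 12.5, 16.5, 16.6, 15.7 and 12.6 CPM in NAMPT LKO Fasting livers, 11.3, 13.6 and 120 CPM in WT Fasting livers and 26.1 and 26.7 CPM in WT Fed livers. Irf7, which drives interferon alpha genes and is itself interferon-induced, was at 35.8, 27.6, 31.1, 28.8 and 24.7 CPM in NAMPT LKO Fasting livers, 32.2, 34.9 and 170 CPM in WT Fasting livers and 24.3 and 18.9 CPM in WT Fed livers. Among the other 9 livers Irf1 was highest and Irf7 lowest in the WT Fed pair, and for neither did that pair overlap the fasted livers. Stat2, part of the type I signalling complex, was at 41, 34.7, 45.5, 30.3 and 42.3 CPM in NAMPT LKO Fasting livers, 36.4, 41.8 and 87.9 CPM in WT Fasting livers and 55.7 and 65.3 CPM in WT Fed livers. Irf9, the DNA-binding part of that complex, was at 32, 31.6, 28.6, 23.5 and 30 CPM in NAMPT LKO Fasting livers, 29.8, 36.3 and 63.8 CPM in WT Fasting livers and 37.7 and 36.6 CPM in WT Fed livers. Both were less than 2-fold above the next liver in WT Fasting mouse 3, and in both the WT Fed pair lay above the other fasted livers. Irf8, a factor of macrophages and dendritic cells, had a log2 difference of 2.45.

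The 8 antiviral effectors, all type I targets, had log2 differences between 1.64 and 2.77. Isg15, a ubiquitin-like modifier, was at 5.69, 3.41, 6.47, 4.87 and 6.15 CPM in NAMPT LKO Fasting livers, 5.05, 5.32 and 39.4 CPM in WT Fasting livers and 11 and 10 CPM in WT Fed livers. Ifit1, which binds foreign RNA, was at 8.34, 5.78, 8.91, 6.82 and 13.5 CPM in NAMPT LKO Fasting livers, 6.49, 7.98 and 52.9 CPM in WT Fasting livers and 10.9 and 8.48 CPM in WT Fed livers. In the 9 other livers Isg15 separated the WT Fed pair, whereas Ifit1 did not, its highest value being that of NAMPT LKO Fasting mouse 5. Rsad2, which encodes viperin, had the smallest difference, with 10.6, 10.5, 9.46, 8.64 and 12.5 CPM in NAMPT LKO Fasting livers, 9.61, 9.44 and 31.9 CPM in WT Fasting livers and 10.6 and 10.2 CPM in WT Fed livers. Ifit2, Ifit3, Ifi44, Oasl2 and Usp18 had log2 differences between 1.79 and 2.56.

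The immunoproteasome subunits and the proteasome activator had a median log2 difference of 2.79 over 5 genes. Psmb9, a catalytic subunit, was at 10.4, 7.24, 11.3, 7.84 and 6.85 CPM in NAMPT LKO Fasting livers, 8.74, 8.83 and 97.3 CPM in WT Fasting livers and 12.1 and 12.9 CPM in WT Fed livers. Psmb8, another catalytic subunit, was at 11.8, 10.4, 11.9, 10.2 and 7.87 CPM in NAMPT LKO Fasting livers, 8.19, 10.4 and 75.8 CPM in WT Fasting livers and 10.7 and 10.6 CPM in WT Fed livers. The third catalytic subunit, Psmb10, had a log2 difference of 2.79. The activator genes differed less. Psme2 was at 37.9, 37.7, 42.5, 40.9 and 28.7 CPM in NAMPT LKO Fasting livers, 39.7, 41.2 and 89.5 CPM in WT Fasting livers and 46.6 and 43.7 CPM in WT Fed livers, a log2 difference of 1.13, and that of Psme1 was 1.32. The constitutive subunit Psmb5, which Psmb8 replaces, was at 59.3 CPM in WT Fasting mouse 3 against 36 to 62.4 CPM in the other livers.

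Antigen presentation by MHC class I had a median log2 difference of 1.72 over 5 genes. Tap1, a subunit of the peptide transporter, was at 23.5, 17.4, 21.1, 15.7 and 14.7 CPM in NAMPT LKO Fasting livers, 18, 18.8 and 167 CPM in WT Fasting livers and 26.3 and 21.7 CPM in WT Fed livers. Nlrc5, the transactivator of MHC class I genes, was at 20.1, 15.5, 13.6, 14.7 and 12.3 CPM in NAMPT LKO Fasting livers, 14.9, 14.5 and 53.7 CPM in WT Fasting livers and 6.3 and 9.3 CPM in WT Fed livers. Nlrc5 was thus lowest in the WT Fed pair, unlike the IRGs that separated the groups. B2m, the light chain of MHC class I, was at 1670, 1450, 1520, 1750 and 2060 CPM in NAMPT LKO Fasting livers, 1490, 1590 and 2400 CPM in WT Fasting livers and 1420 and 1390 CPM in WT Fed livers, the smallest difference of all 45 genes (0.66). Tap2 and Tapbp had log2 differences of 1.71 and 1.72. The heavy chain gene H2-K1, which is not among the 47, was at 2110 CPM in WT Fasting mouse 3 against 838 to 1320 CPM in the other livers, and reads of such closely related heavy chain genes may be shared.

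The 4 MHC class II genes had log2 differences between 3.14 and 3.76. H2-Ab1, a chain of the class II molecule, was at 43.2, 18.3, 20.8, 22.1 and 11.9 CPM in NAMPT LKO Fasting livers, 15.6, 13 and 212 CPM in WT Fasting livers and 10.4 and 9.96 CPM in WT Fed livers. Ciita, the class II transactivator, was at 1.63, 0.885, 0.988, 1.36 and 0.35 CPM in NAMPT LKO Fasting livers, 0.449, 0.733 and 11 CPM in WT Fasting livers and 0.398 and 1 CPM in WT Fed livers. Cd74, the invariant chain, was at 91.7, 55.1, 50.4, 50.6 and 24 CPM in NAMPT LKO Fasting livers, 36.8, 37.4 and 331 CPM in WT Fasting livers and 33.2 and 27.3 CPM in WT Fed livers. All 4 genes, H2-Aa included, were highest of the 9 other livers in NAMPT LKO Fasting mouse 1, and Ciita, Cd74 and H2-Aa were lowest in NAMPT LKO Fasting mouse 5. The spread was therefore widest within the NAMPT LKO Fasting group.

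Both chemokine genes, whose products attract T cells through the receptor CXCR3, stood far apart in WT Fasting mouse 3. Cxcl9, a largely gamma-specific target, was at 4.92, 7.71, 5.53, 6.8 and 4.63 CPM in NAMPT LKO Fasting livers, 5.17, 3.85 and 140 CPM in WT Fasting livers and 4.09 and 7.48 CPM in WT Fed livers. Cxcl10, a shared target, was at 0.959, 1.8, 0.988, 1.77 and 0.525 CPM in NAMPT LKO Fasting livers, 0.992, 2.02 and 28.5 CPM in WT Fasting livers and 2.34 and 2.57 CPM in WT Fed livers. In the 9 other livers the groups overlapped for Cxcl9, whereas for Cxcl10 the WT Fed pair was highest.

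Parp9, Parp14 and Dtx3l, which encode ADP-ribosyltransferases that use NAD and the ubiquitin ligase partner of PARP9, had the lowest median of the groups (1.23). Parp14 was at 31.1, 29.4, 27.9, 23.4 and 40.3 CPM in NAMPT LKO Fasting livers, 22.8, 26.6 and 128 CPM in WT Fasting livers and 25.8 and 26.5 CPM in WT Fed livers. Parp9 was at 42.7, 39.7, 39.7, 35.2 and 54.7 CPM in NAMPT LKO Fasting livers, 43.2, 41.4 and 100 CPM in WT Fasting livers and 46.5 and 45.1 CPM in WT Fed livers. Dtx3l was at 54.4, 47.1, 51.4, 48.9 and 76.6 CPM in NAMPT LKO Fasting livers, 52.4, 51.5 and 114 CPM in WT Fasting livers and 76 and 69.9 CPM in WT Fed livers. All 3 were highest of their group in NAMPT LKO Fasting mouse 5. Parp9 and Dtx3l overlap by 682 bases on opposite strands, and without a stated strand setting their reads cannot be told apart there.

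Levels per length (RPKM, reads per kilobase of exon and library size) set the genes in an order. In the median of the 9 other livers B2m was highest at 1780 RPKM, followed by Iigp1 at 82.7 RPKM, Psme1 at 36.1 RPKM and Cd74 at 26.5 RPKM, and Ciita was lowest at 0.169 RPKM. In WT Fasting mouse 3 B2m was at 2880 RPKM and Iigp1 at 930 RPKM, the first and second again. Igtp moved from 10.8 to 454 RPKM, which placed it at rank 3, and Tgtp1 from 0.395 RPKM, rank 43 of 45, to 147 RPKM, rank 6.

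The interferon genes themselves were barely detected. Ifng had 18 counts in WT Fasting mouse 3 (0.402 CPM), none in 7 of the other 9 livers and at most 2 counts in any other. No count was found for Ifnb1 or for 14 genes of the interferon alpha type in any library. A count of 0 allows up to 3 counts, or between 0.0691 and 0.098 CPM of the library total. Of 25 ligand genes, 18 had no count in any liver. Mx1, a type I antiviral gene, was at 2.79 CPM in WT Fasting mouse 3 against 0.486 to 0.941 CPM in the other livers.

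Lists of related genes outside the set differed in how many members were highest in the same liver. One entry of the interferon-stimulated list, the Gbp2b feature, also holds exon parts in the span of Gbp5, which is in the set. Of all 13444 tested genes, 13.3% were highest in WT Fasting mouse 3 and 1.51% were highest by at least 2-fold. Of 31 other interferon-stimulated genes tested, 30 were highest in WT Fasting mouse 3, 18 of them by at least 2-fold. That list summed to 1990 CPM there and to between 477 and 745 CPM in the other livers. Of 28 other antigen presentation genes, 20 were highest there and 10 by at least 2-fold. Of 14 nucleic acid sensing genes, 10 were highest there and 2 by at least 2-fold, with a median log2 difference of 0.82. Of 21 receptor and signalling genes 5 were highest there, 2 of them by at least 2-fold, and the median log2 difference was 0.15. Of 5 constitutive counterparts of the immunoproteasome 1 was highest there. The filter behind these counts used all 10 libraries. Without WT Fasting mouse 3 it kept 28 of the other interferon-stimulated genes, 27 of the other antigen presentation genes and 20 of the receptor and signalling genes. The rest of these 3 lists passed only through the liver in which they were high. Zbp1, Cd274, Socs1, Ifngr1 and Ifnar1 are named here after their values were seen. Zbp1, a sensor from the nucleic acid list, was at 116 CPM against at most 5.75 CPM, and Cd274, which encodes PD-L1, was at 46.5 CPM against at most 3.3 CPM. Socs1, a feedback inhibitor from the signalling list, was at 5.7 CPM against at most 0.941 CPM. It is the signalling gene that passed the filter only through WT Fasting mouse 3. Among the interferon receptors, Ifngr1 was at 15.5 CPM against 9.98 to 17.2 CPM, and Ifnar1 at 32.8 CPM against 29.1 to 43.8 CPM.

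Markers of other cell types were measured beside this result, and their sums are CPM of the library total. Kupffer cell and macrophage markers summed to 788 CPM in WT Fasting mouse 3, between 273 and 575 CPM in NAMPT LKO Fasting livers, 373 and 386 CPM in the other WT Fasting livers and 306 and 383 CPM in WT Fed livers. In WT Fasting mouse 3, 10 of 11 of them were highest, none by 2-fold, and none was at 0. Of all tested genes 13.3% were highest in that liver. T cell markers summed to 8.27 CPM there and to between 2.52 and 4.83 CPM in the other livers, with none of 12 at 0. NK cell markers summed to 1.82 CPM against 0.389 to 0.826 CPM, with 4 of 9 at 0 in WT Fasting mouse 3. These 4, Klre1, Klra8, Ncr1 and Eomes, were at 0 in 1, 10, 8 and 9 of the 10 livers. Gzmb was at 0.581 CPM in WT Fasting mouse 3 and at 0 in 7 of the 10 livers. Neutrophil markers summed to 6.38 CPM against 2.52 to 5.23 CPM, and dendritic cell markers to 10.7 CPM against 6.69 to 10.4 CPM. B cell markers, at 4.77 CPM, lay inside the range of 3.5 to 7.16 CPM, as did sinusoidal endothelial markers at 230 CPM (195 to 251 CPM). Acute phase genes summed to 10900 CPM there and were highest, at 25100 CPM, in NAMPT LKO Fasting mouse 3. The part of these cells, and of the low mitochondrial share, in the interferon result was not tested.

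With all 10 libraries in one fit, none of the 45 genes passed an adjusted p of 0.05 between WT Fasting and WT Fed livers (edgeR's quasi-likelihood test with Benjamini-Hochberg adjustment), where 7.04% of all tested genes did. At an unadjusted p under 0.05, 15 of them passed, as did 3002 of 13444 tested genes. The exact test of edgeR called 3 of the 45 (8.87% of all genes), DESeq2 1 (12.2% of all genes) and voomWithQualityWeights 1 (24.8% of all genes). The fitted log2 fold change was above 0 for 43 of 45 genes, with a median of 1.5, against 0.04 for all tested genes. Against WT Fasting livers, 0 of 45 passed in NAMPT LKO Fasting livers and 0.00744% of all tested genes did. At an unadjusted p under 0.05, 31 of them passed, as did 811 of 13444 tested genes. The exact test called 4 of the 45 (0.179% of all genes), and DESeq2 (0.156% of all genes) and voomWithQualityWeights (0.00744% of all genes) called 0. All 45 fitted log2 fold changes were below 0, with a median of -1.56, against 0.00 for all tested genes. Both comparisons contain WT Fasting mouse 3, which chose the genes, and nothing is read from these counts.

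The 9 livers without WT Fasting mouse 3 were tested on their own. The rise that chose the genes was not in these livers but was seen against them, so their test is not fully independent of the choice. In these livers the highest was 2-fold above the lowest in the median gene, the narrowest was Psme1 at 1.29-fold and the widest was H2-Aa at 5.35-fold. The range exceeded 4-fold for 5 genes, namely H2-Aa, Gm12250, Cxcl10, Ciita and H2-Ab1. The 7 fasted livers all lay below both WT Fed livers for 11 of 45 genes and above both for 4. Over all 13329 tested genes these shares were 16.2% and 13.5%.

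NAMPT LKO Fasting livers differed from WT Fed livers in 7 of 45 genes (15.6%), of which 6 were lower and 1 higher, and 11.3% of all tested genes were called. Irgm1, Igtp and Ifi47 among the IRGs, Irf1 and Stat2 among the transcription factors and Isg15 among the antiviral effectors fell, and Nlrc5 rose. These groups differ in both genotype and feeding, and the series holds no fed NAMPT LKO group. Genotype and feeding therefore cannot be told apart in this comparison. The share called was near that of all genes. The median log2 fold change of the 45 genes was -0.03, against 0.04 for all tested genes, with 21 genes above 0 and 24 below. Among the gamma-type targets 1 rose and 4 fell of 30, among the type I targets 2 fell of 11, and among the shared targets 0 of 4 passed.

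Irgm1 had a mean of 30.3 ± 3.8 CPM (SD, n = 5) in NAMPT LKO Fasting and 53.5 ± 1.8 CPM (SD, n = 2) in WT Fed livers, a log2 fold change of -0.82 ± 0.14 (SE, the standard error, edgeR adjusted p = 0.00518). Irf1 was at 14.8 ± 2.09 CPM (SD, n = 5) against 26.4 ± 0.403 CPM (SD, n = 2), a log2 fold change of -0.83 ± 0.15 (SE, edgeR adjusted p = 0.00726). Isg15 was at 5.32 ± 1.22 CPM (SD, n = 5) against 10.5 ± 0.707 CPM (SD, n = 2), a log2 fold change of -0.98 ± 0.22 (SE, edgeR adjusted p = 0.0179). Nlrc5 was at 15.3 ± 2.98 CPM (SD, n = 5) against 7.8 ± 2.12 CPM (SD, n = 2), a log2 fold change of 0.97 ± 0.22 (SE, edgeR adjusted p = 0.0188). The log2 fold changes of Igtp, Ifi47 and Stat2 were -0.98, -0.80 and -0.64, with adjusted p = 0.0215, 0.0256 and 0.0296 (edgeR).

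**Figure D3:**
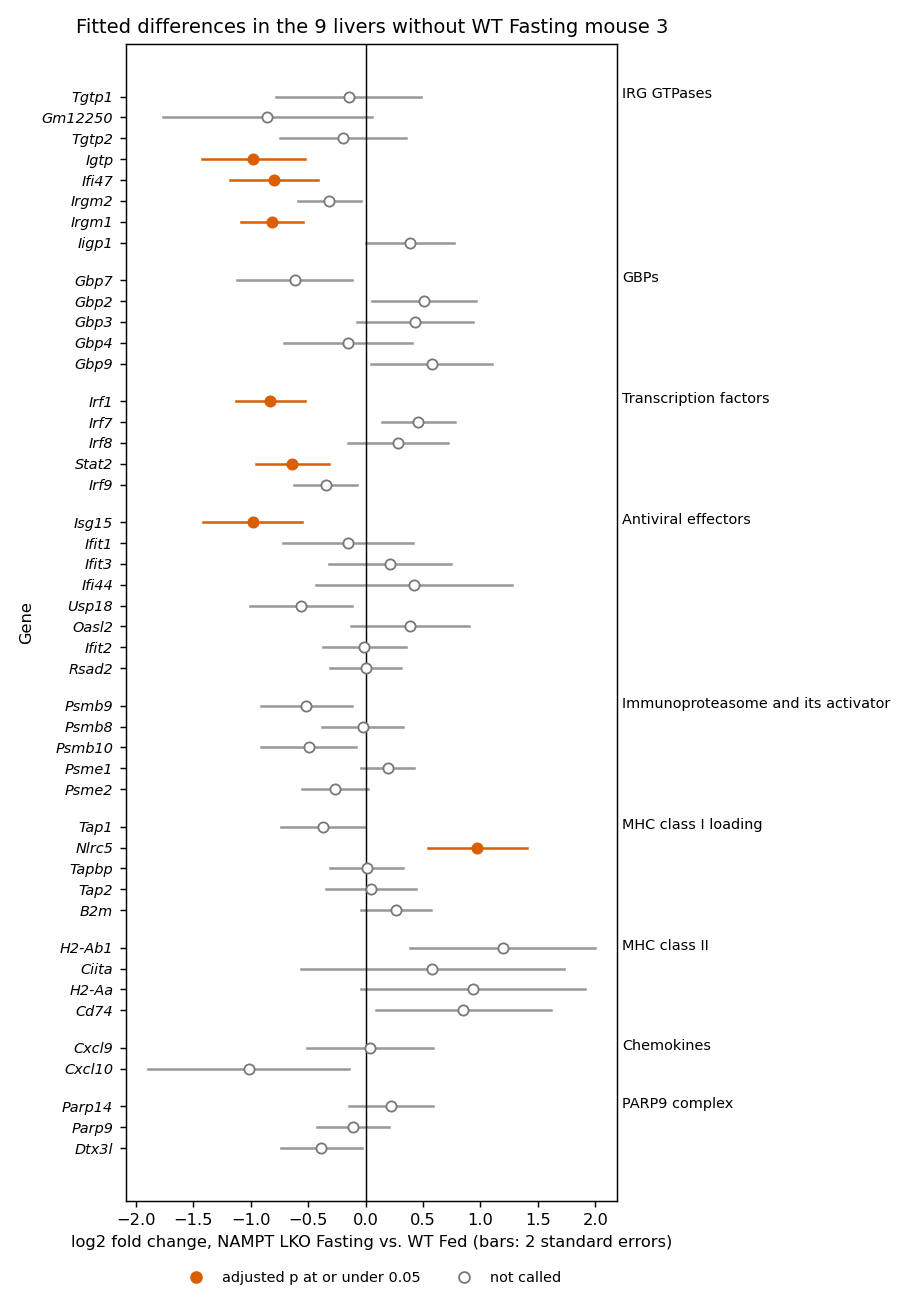
Fitted log2 fold change of NAMPT LKO Fasting against WT Fed livers for the 45 genes in the 9 livers without WT Fasting mouse 3, with bars of 2 standard errors. Filled points mark the 7 genes called at an adjusted p of 0.05, 6 on the side of lower expression and Nlrc5 on the side of higher expression.

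**Figure D4:**
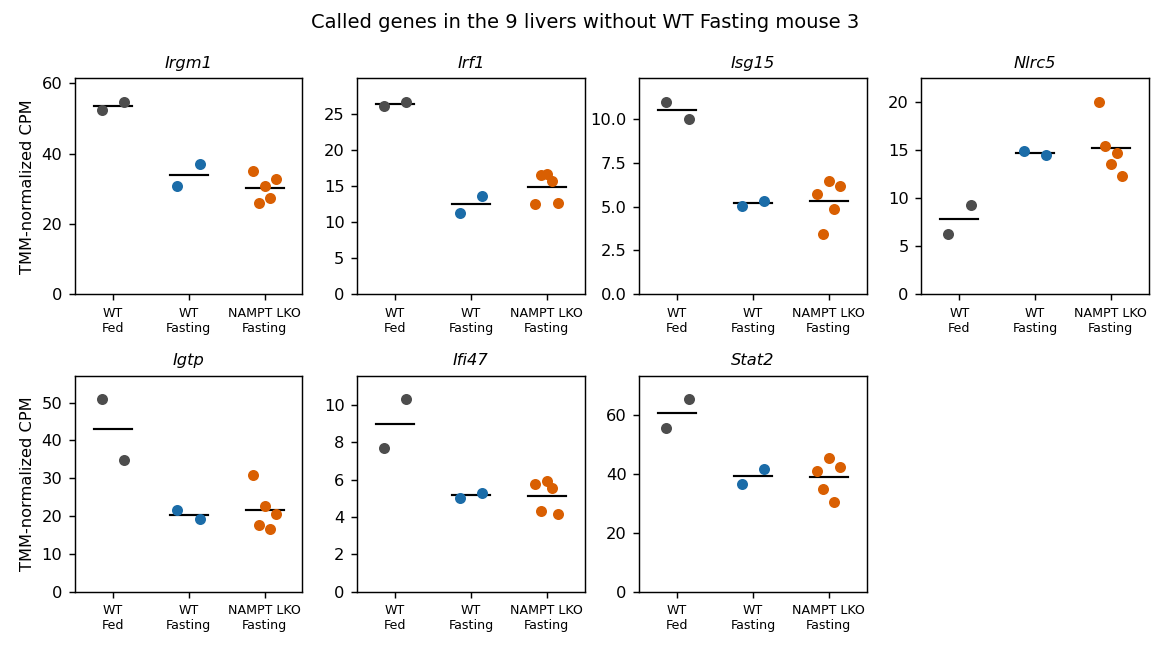
TMM-normalized CPM of the 7 called genes in WT Fed (n = 2), WT Fasting (n = 2, mouse 3 left out) and NAMPT LKO Fasting livers (n = 5). Points are livers and lines are group means. The 2 WT Fed livers lie above all fasted livers for 6 genes and below them for Nlrc5.

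Without WT Fed mouse 1, 1 of 45 genes was called (2.37% of all genes) and without WT Fed mouse 2 none was (1.62% of all genes). In these fits 1 WT Fed liver was left and was assumed to vary like the other groups, so the lost calls say little about stability. All 7 genes kept their direction in both fits, and the log2 fold change of Irgm1 was -0.87 and -0.79. Without NAMPT LKO Fasting mouse 5, the liver of high mitochondrial share, 14 genes were called (25.1% of all genes), and without NAMPT LKO Fasting mouse 2 there were 4 (6.99% of all genes). With all 10 libraries in the fit, 0 of 45 were called (11.2% of all genes), 1 of 45 passed at an unadjusted p under 0.05 (3508 of all 13444 genes), and WT Fasting mouse 3 then entered the estimate of the spread.

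WT Fasting mice 1 and 2 differed from WT Fed livers in 2 of 45 genes (4.44%), and 5.86% of all tested genes were called. Irf1 fell, with a log2 fold change of -1.09 ± 0.19 (SE, edgeR adjusted p = 0.0104), and so did Irgm1, with -0.67 ± 0.17 (SE, edgeR adjusted p = 0.0461). Irf1 was at 12.5 ± 1.66 CPM (SD, n = 2) and Irgm1 at 33.8 ± 4.34 CPM (SD, n = 2) in these WT Fasting livers. Fitted log2 fold changes were below 0 for 34 of 45 genes, with a median of -0.21, against 0.01 for all tested genes. All 8 IRGs were below 0, with a median of -0.74, whereas Nlrc5 had a log2 fold change of 0.91 ± 0.25 (SE, edgeR adjusted p = 0.0601) and Irf7 one of 0.63 (standard error 0.19, adjusted p = 0.0775, edgeR). The same 2 WT Fed livers enter this comparison and the one above. Without WT Fed mouse 1, WT Fed mouse 2 or WT Fasting mouse 1, 0 of 45 genes were called (1.29%, 0.557% and 0.993% of all genes), and without WT Fasting mouse 2 there was 1 (1.39% of all genes). Each of these fits left an arm of 1 liver, which was assumed to vary like the other groups. Without NAMPT LKO Fasting mouse 5 there were 11 (17.3% of all genes) and without NAMPT LKO Fasting mouse 1 there were 4 (5.07% of all genes). Leaving out NAMPT LKO Fasting mouse 3 or 4 gave 1 gene each (4.67% and 5.37% of all genes).

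When NAMPT LKO Fasting livers were set against WT Fasting mice 1 and 2, none of the 45 genes passed (edgeR's quasi-likelihood test), and 0.0075% of all tested genes did, which was Nampt alone. At an unadjusted p under 0.05, 2 of the 45 passed, as did 452 of 13329 tested genes. The exact test (0.165% of all genes), DESeq2 (0.158% of all genes) and voomWithQualityWeights (0.0225% of all genes) called 0 of the 45. Tgtp2 had a log2 fold change of 1.04 (2 standard errors either side, 0.44 to 1.65, adjusted p = 0.989, edgeR) and Gbp2 one of 0.60 (0.14 to 1.06, adjusted p = 0.989, edgeR). With 2 WT Fasting livers these intervals are wide, and a p that misses the threshold does not show that the groups were alike. The fitted values were above 0 for 35 of 45 genes, with a median of 0.13, against 0.02 for all tested genes.

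Genes around the pathway were counted in the same fits. Between NAMPT LKO Fasting and WT Fed livers, 11.3% of all tested genes were called. There, 3 of 20 tested receptor and signalling genes rose and 1 fell. Irf2bp2, a corepressor partner of IRF2, rose by a log2 fold change of 0.94 (adjusted p = 0.0151, edgeR), Jak2, the kinase of the gamma receptor, by 0.54 (adjusted p = 0.0207, edgeR) and Ifngr1, a receptor chain, by 0.53 (adjusted p = 0.0295, edgeR), and the gene that fell, named after its values were seen, was Irf3 (log2 fold change -0.51, adjusted p = 0.0467, edgeR). Of 14 nucleic acid sensing genes 1 fell, Mavs, the adaptor of the RNA sensors (log2 fold change -0.66, adjusted p = 0.0156, edgeR). Of 28 other interferon-stimulated genes 1 fell, Ifi35 (-0.80, adjusted p = 0.00907, edgeR).

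Of 27 other antigen presentation genes 2 fell and 1 rose in the same comparison, where 11.3% of all tested genes were called. Those that fell were Pdia3 (log2 fold change -1.18, adjusted p = 0.0034, edgeR) and Calr (-1.09, adjusted p = 0.00833, edgeR), endoplasmic reticulum chaperones that serve protein folding in general as well as the loading of MHC class I. The one that rose was H2-Q4 (0.69, adjusted p = 0.0181, edgeR), a class I gene whose reads may be shared with its neighbours. Of 5 constitutive counterparts of the immunoproteasome 1 fell, Psme3 (-0.38, adjusted p = 0.0313, edgeR). Between WT Fasting mice 1 and 2 and WT Fed livers, Pdia3 and Calr fell (-1.37 and -1.20) and Irf2bp2 rose (1.29), with adjusted p = 0.00929, 0.0258 and 0.0116 (edgeR). Cell type markers were tested too, 11 of Kupffer cells and macrophages, 6 of endothelium and 4 of B cells. Neutrophils and dendritic cells had 2 each and T cells 1. None of these passed in any of the 3 comparisons of the 9 livers, at adjusted p of edgeR's quasi-likelihood test. Of all tested genes 11.3% passed for NAMPT LKO Fasting against WT Fed and 5.86% for WT Fasting against WT Fed. The share was 0.0075% when the fasted groups were compared. For NAMPT LKO Fasting against WT Fed, 10 of 11 Kupffer cell and macrophage, 6 of 6 endothelial and 4 of 4 B cell markers were above 0. These were 9, 4 and 4 for WT Fasting against WT Fed, and 8, 6 and 2 for the fasted groups. Missing the threshold does not show that cell content was alike. The NK cell markers were too low to be tested.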

How the data were processed

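Liver RNA was poly-A selected and sequenced as single 50-base reads. The authors aligned reads to GRCm38 with STAR (2.5.1a in the submitters' processing notes) and deposited counts of uniquely aligned reads per Ensembl gene, made with featureCounts (1.4.6-p5). The authors also deposited CPM, scaled to the library total, and deposited RPKM, further divided by exonic length. Both were recomputed from the counts, with a largest difference of 5.82e-11 CPM and 5.09e-11 RPKM. A strand setting is not given in the sources used here.

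Symbols came from GENCODE M21 for 40254 of 41388 genes. The filter kept every gene that exceeded 1 CPM in 1 library or more, other than rRNA. After TMM normalization, edgeR 4.0.16 fitted quasi-likelihood models (glmQLFit legacy default, limma 3.58.1, R 4.3.3), with 1 mean per group and Benjamini-Hochberg adjustment over all genes, at an adjusted p of 0.05. Standard errors are the absolute log2 fold change from the unshrunken coefficients, divided by the square root of F. The log2 fold changes given are those that edgeR reports after shrinkage. One fit left out WT Fasting mouse 3 (13329 genes) and another held all 10 libraries (13444 genes). Log2 differences of 1 liver used log2(CPM + 0.1). The scripts were tested on simulated data.

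Members and lists were chosen with earlier results of these data known. Values in every library are given for genes called without WT Fasting mouse 3, for the 2 largest and 1 smallest log2 differences of each role, and for Irf1, Irf7, Stat2 and Nlrc5. From the related lists at most 3 called genes by lowest p are named, besides Ifng, Ifnb1, Mx1, H2-K1 and Psmb5. A gene under this rule is not reported here.

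Alternatives were edgeR's exact test, voomWithQualityWeights, DESeq2 1.42.0, RLE factors, other filters, fits of the 2 groups compared, each library left out, a replicate block and another pseudocount. No 2 libraries of a group held counts that agree within sampling noise. Counting limits cover counting error only.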

Additional observations from a re-analysis of the deposited data

Results flagged for a closer look

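Within the 5 NAMPT LKO Fasting livers, 48 values were examined for a liver far from the others by Dixon's criterion (a gap over 0.71 of the group's range), and 4 were found where chance gives about 2.4. Iigp1 was at 408 CPM in NAMPT LKO Fasting mouse 5, with a gap of 0.851. Dtx3l was at 76.6 CPM in the same liver, with a gap of 0.752. The median log2 difference of the shared targets was 0.45 in that liver, with a gap of 0.712. That liver also had the mitochondrial share of 21.1%, and its part in these values was not tested. Gbp3 was at 5.63 CPM in NAMPT LKO Fasting mouse 1, with a gap of 0.792.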

How the results depend on the processing

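The number of the 45 genes called depended on the test and on single livers, and the cause was not tested. Percentages in parentheses are the shares of all tested genes called in the same fit. For NAMPT LKO Fasting against WT Fed livers without WT Fasting mouse 3 the number was 7 (11.3%), and it was 20 with voomWithQualityWeights (32%), 0 with all 10 libraries (11.2%) and 0 to 14 with 1 library left out (1.62% to 25.1%). For WT Fasting against WT Fed livers without mouse 3 it was 2 (5.86%), and it was 9 with the exact test (8.82%), 13 with voomWithQualityWeights (23%), 10 with DESeq2 (11.1%), 6 without a filter (3.78%), 13 with only the 2 groups compared (19.6%) and 0 to 11 with 1 library left out (0.557% to 17.3%). With all 10 libraries that comparison gave 0 (7.04%), and it gave 3 with the exact test (8.87%), 1 with voomWithQualityWeights (24.8%), 1 with DESeq2 (12.2%), 5 without a filter (3.60%) and 0 to 2 with 1 library left out (0.79% to 16.7%). NAMPT LKO Fasting against WT Fasting livers with all 10 libraries gave 0 (0.00744%), and it gave 4 with the exact test (0.179%) and 3 without a filter (0.0649%). Without mouse 3 that comparison gave 0 under every alternative run. Over all genes, the calls of NAMPT LKO Fasting against WT Fed livers went from 1507 to 4271 with voomWithQualityWeights, and those of WT Fasting against WT Fed livers without mouse 3 from 781 to 3068.

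The count of genes at least 2-fold above every other liver in WT Fasting mouse 3 was 39, and between 39 and 40 with another pseudocount, with plain CPM or with 1 library left out. Of 151 refits of single called genes, 118 kept the direction and the call, 33 kept the direction and lost the call, and 0 reversed. Replicate numbers are shared by different mice, and the labels state no pairing, so the numbers were not taken to pair mice. Deviations of same-numbered livers correlated at 0.115, 0.064 and 0.127, above those of differently numbered livers (-0.188 to 0.005). These correlations do not settle whether the numbers mark a shared source. With a replicate block NAMPT LKO Fasting livers differed from WT Fasting livers in 0 of 45 genes, as without the block. Depth limits what can be said of the interferon genes themselves, most of which had no count.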
